A study of Homo sapiens with 27 samples.

Results

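Ribosome biogenesis genes encode the proteins that make ribosomal RNA and build it into the small and large ribosomal subunits. A set of 43 such genes, chosen by gene symbol, was read across all 9 groups of a ligand combination experiment. All 43 symbols were found, in 46 rows of a table of 40487 rows, and rows that shared a symbol were summed, which left 36536 genes or unnamed rows. All 43 passed the filter on low counts, among 15575 genes tested. The cells were of MCF10A, a non-tumorigenic line of human mammary epithelium. They were maintained with serum and 20 ng/ml of epidermal growth factor (EGF), and then held for 18 h without growth factors. One group was collected at 0 h (T0), labelled as having no treatment. The other 8 groups were collected 24 h after fresh medium with either vehicle (phosphate-buffered saline, PBS), EGF, the interleukin-6 family cytokine oncostatin M (OSM), transforming growth factor beta (TGFB), EGF+OSM, EGF+TGFB, OSM+TGFB or EGF+OSM+TGFB. Each ligand was given at 10 ng/ml, and each of the 9 groups had 3 libraries. All groups are 1 cell line, and all had passed through the medium without growth factors. The title of the study asks whether combined signals act non-additively. The labels do not say whether the 3 libraries of a group came from separate cultures, so the p-values measure the spread between these libraries, which may be technical.

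In the nucleolus, RNA polymerase I copies the ribosomal RNA genes into a long precursor. Small nucleolar ribonucleoproteins of the box C/D and box H/ACA kinds modify its nucleotides. A large assembly called the small-subunit processome folds and cleaves its first part, and other factors build the large subunit from the rest. Growth factors raise this output in dividing cells, MYC is a known activator of many of the genes, and TGFB is a known growth inhibitor of mammary epithelium.

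Library totals ranged from 30.1 to 52.9 M (mega) estimated counts, and each library correlated most closely with libraries of its own group. Within OSM, replicate 3 stood somewhat apart, with a median log2 ratio of the members to PBS of 0.72 against 0.49 and 0.52. Within EGF+TGFB replicate 3 did, with 0.48 against 0.26 and 0.18. Replicate 3 had the highest such median in every group except PBS. There it had the lowest, -0.02 against -0.01 and 0.04. Basal mammary epithelial markers were present, with 10 of 10 tested and summed levels of 14468 to 40992 counts per 1 M (CPM). Of the other cell types checked, COL1A2, COL3A1, LUM and PDGFRA (fibroblast), CDH5 and TEK (endothelium), PTPRC and CD3E (leukocyte), and PGR and KRT19 (luminal) were under 1 CPM in every library. The lists still held other genes that were detected. Summed group means ran from 13.8 CPM in EGF+OSM to 208 CPM in TGFB for the fibroblast list, from 1.42 in EGF+TGFB to 33.8 in PBS for endothelium, from 28.6 in EGF to 105 in OSM for leukocyte and from 168 in EGF to 714 with all 3 ligands for luminal markers, and their part in the results was not tested. In bulk RNA, fewer cells of a type and less RNA per cell cannot be told apart, and CPM values are shares of the library, not amounts per cell.

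Because MYC binds the sequence CACGTG, called an E-box, the promoters of the members are shown first. In the RefSeq table of promoters (GRCh38.p14, windows of 300 bases, from 250 before to 50 after a transcription start), 37 of the 43 members were matched by symbol, with 47 windows. NOLC1, BOP1, TCOF1, RRP12, RRS1 and NOP58 were not matched. CACGTG, which reads the same on both strands, occurred in a window of 16 of the 37 members (43.2%). The share was 8.77% over all 27305 genes of the table and 12.2% over the 11438 of them that were tested for expression. A match is a description of the letters, not evidence of binding. The 3 members below had it within 120 bases before their most upstream start. They are NAT10, an RNA cytidine acetyltransferase, NOP10, a small box H/ACA protein, and UTP20, a scaffold of the processome. They are shown because they met this rule, and their responses to TGFB are described below. The capitals mark the E-box.
NAT10: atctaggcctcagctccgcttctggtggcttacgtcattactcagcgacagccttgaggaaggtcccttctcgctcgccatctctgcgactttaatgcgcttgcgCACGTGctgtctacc
NOP10: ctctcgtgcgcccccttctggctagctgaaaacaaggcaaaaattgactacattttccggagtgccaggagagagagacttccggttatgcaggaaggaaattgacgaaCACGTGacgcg
UTP20: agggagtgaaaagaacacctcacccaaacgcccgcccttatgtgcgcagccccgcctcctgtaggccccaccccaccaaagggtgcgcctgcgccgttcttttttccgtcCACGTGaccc
The stretches lie at chr11:34105509-34105628 on the plus strand, chr15:34343137-34343256 on the minus strand and chr12:101279985-101280104 on the plus strand.

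Per kilobase of the MANE Select transcript, the members covered a wide range of levels in PBS, from 3.03 CPM per kb for UTP15 to 1018 CPM per kb for NPM1, with a median of 18.0. NPM1 (nucleophosmin, a histone and ribosomal protein chaperone) held 25.9% of the members' summed CPM, and NCL (nucleolin, a ribosomal RNA binding protein) held 13.3%. The 43 members together took 0.499% ± 0.0112 of all counts in PBS, 0.557% ± 0.0116 in T0, 0.881% ± 0.0394 in EGF, 0.679% ± 0.0401 in OSM and 1.01% ± 0.0534 in EGF+OSM (SD, n = 3). Every group with TGFB had a mean below that of PBS on this measure, 0.417% ± 0.00358 in TGFB, 0.474% ± 0.0537 in EGF+TGFB, 0.370% ± 0.0179 in OSM+TGFB and 0.440% ± 0.0293 with all 3 ligands. On the TMM-scaled CPM used below, the direction turned for 2 of these groups. The members summed to 4549 ± 121 CPM in PBS, 3975 ± 52.5 in TGFB and 4214 ± 241 in OSM+TGFB, but to 5001 ± 464 in EGF+TGFB and 5013 ± 302 with all 3 ligands (SD, n = 3). Sums are also weighted to NPM1 and NCL, so the results below are given gene by gene. The gene-by-gene values still depend on the TMM scaling. Its factors were 1.08 to 1.12 in PBS and 0.87 to 0.89 in OSM+TGFB and with all 3 ligands. On scaled CPM, EGF+OSM was the group with the highest mean for 40 of the 43 members, and TGFB alone was the lowest for 29. The same counts over all genes were not made.

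**Figure D1:**
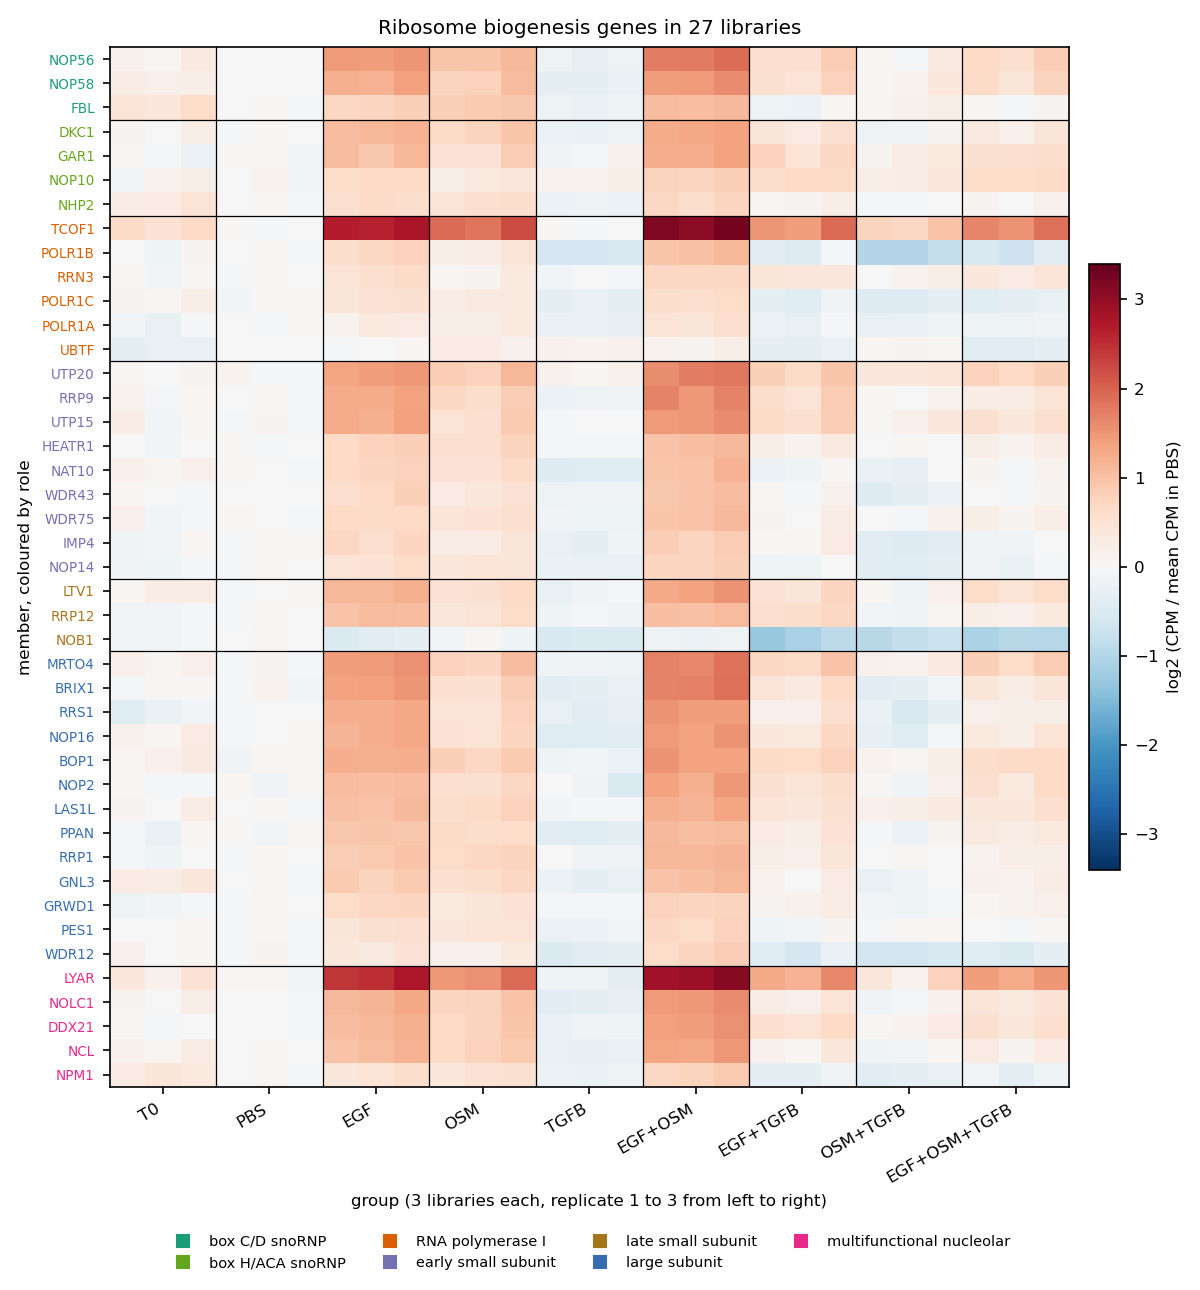
Each row is 1 of the 43 members, grouped and coloured by role, and each column is 1 of the 27 libraries. Colour gives log2 of the CPM over the gene's mean CPM in PBS, red above and blue below. EGF, OSM and EGF+OSM columns are red for nearly every row, while NOB1 is blue in every TGFB column.

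EGF raised almost the whole set. Against PBS, 41 of 43 members rose and 1 fell at an adjusted p under 0.05, where 34.9% of all genes tested were higher and 38.6% were lower. The median log2 fold change of the members was 0.92, against -0.07 for all genes. OSM gave 42 higher and none lower, against 33.5% higher and 29.8% lower of all genes, with a member median of 0.60 and 0.00 for all genes. Without OSM replicate 3 the median was 0.51 and 40 were higher. Of the 43, 41 were higher with both ligands, and the same count over all genes was not made. These and the other comparisons with PBS share the same 3 PBS libraries, so the values are set side by side and their resemblance is not used as a result.

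Among the polymerase I genes, 5 of 6 rose with EGF and 6 of 6 with OSM, and the group held both the largest response to EGF and the member closest to 0. TCOF1 (ENSG00000070814, chromosome 5, 150357629 to 150400308, plus strand, GENCODE v44 on GRCh38) encodes treacle, which supports polymerase I transcription in the nucleolus. Its levels were 53.1, 50.3 and 51.2 CPM in the 3 PBS libraries, 327, 316 and 354 CPM in EGF, 197, 181 and 238 CPM in OSM, and 467, 421 and 490 CPM in EGF+OSM. None of the 4 groups overlapped another. The log2 fold change against PBS was 2.69 with EGF (SE 0.12, edgeR adjusted p = 1.41e-14) and 1.99 with OSM (SE 0.12, edgeR adjusted p = 2.24e-12), the highest of the 43 in both.

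UBTF (ENSG00000108312, chromosome 17, 44205033 to 44221626, minus strand), the upstream binding factor that keeps ribosomal RNA genes open, was the member not called in either direction with EGF. Its levels were 125, 128 and 124 CPM in PBS and 121, 125 and 131 CPM in EGF, and the log2 fold change was 0.00 (SE 0.04, edgeR adjusted p = 0.99). With OSM they were 152, 152 and 140 CPM, above every PBS library, and the log2 fold change was 0.23 (SE 0.04, edgeR adjusted p = 5.28e-05). RRN3, the factor that lets polymerase I start, had the smallest log2 fold change of the group with OSM, 0.16 (SE 0.07, edgeR adjusted p = 0.0308). That call was lost without PBS replicate 1 (0.15, edgeR adjusted p = 0.0906), PBS replicate 3 (0.16, edgeR adjusted p = 0.0629) or OSM replicate 3 (0.07, edgeR adjusted p = 0.364), and DESeq2 did not make it (adjusted p = 0.0759). The call was also lost under upper-quartile scaling (0.11, edgeR adjusted p = 0.132). It was lost without a filter on low counts (0.15, edgeR adjusted p = 0.0856) as well. With only the compared groups in the fit the value was 0.15 (edgeR adjusted p = 0.14). RRN3 had 2 unequal rows, with mean counts of 1613 and 673, which were summed. With rows as deposited the value was 0.20 (edgeR adjusted p = 0.207). RRN3 has near-identical pseudogene copies, and NPM1 has many, so reads of both may have been split.

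**Figure D2:**
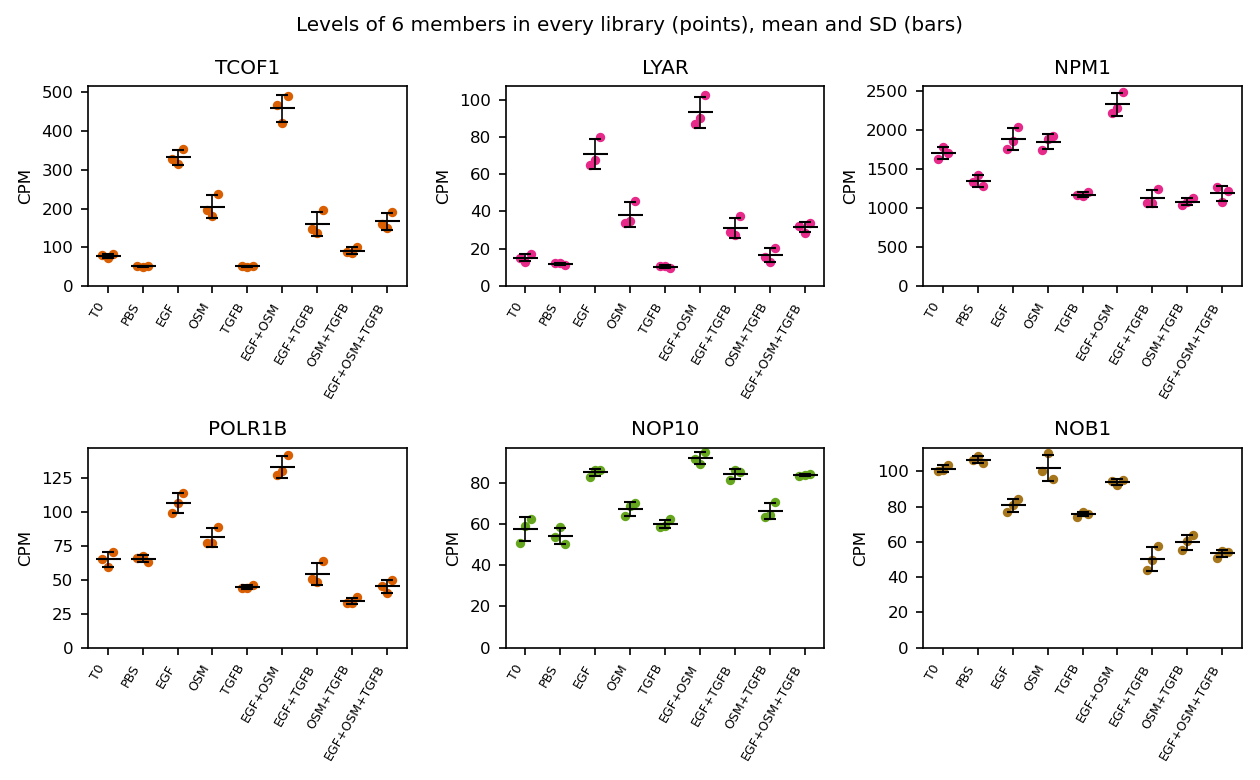
Points are the CPM of each library for TCOF1, LYAR, NPM1, POLR1B, NOP10 and NOB1 in the 9 groups, and bars are the mean and SD of 3 libraries, with axes from 0. TCOF1 and LYAR are highest in EGF+OSM (459 and 93.1 CPM on average), and NOB1 is highest in PBS (107 CPM).

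The genes that modify ribosomal RNA rose as a block. All 3 box C/D proteins were higher with EGF and with OSM, with medians of 1.26 and 0.89. NOP56, a core scaffold of the particle, had the largest log2 fold change with EGF, 1.46 (SE 0.09), and with OSM, 1.00 (SE 0.09). FBL, the methyltransferase fibrillarin, had the smallest with EGF, 0.75 (SE 0.06), and with OSM, 0.88 (SE 0.06). FBL stood in the table as 2 identical rows, as did BOP1, and each pair was summed. All 4 box H/ACA proteins also rose with both ligands. DKC1, the pseudouridine synthase dyskerin, led with 1.13 (SE 0.08) in EGF and 0.78 (SE 0.08) in OSM. The lowest was NHP2 with EGF, 0.60 (SE 0.06), and NOP10 with OSM, 0.32 (SE 0.06).

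All 9 genes of early small-subunit processing rose with EGF and with OSM, with medians of 0.73 and 0.55. UTP20 was the highest with both, 1.41 (SE 0.08) with EGF and 0.94 (SE 0.08) with OSM. NOP14 was the lowest with EGF, 0.53 (SE 0.05), and IMP4, a pre-ribosomal RNA binding protein, was the lowest with OSM, 0.30 (SE 0.07).

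The late small-subunit factors split. LTV1, an export factor of the small-subunit precursor, rose by 1.16 (SE 0.09) with EGF and 0.57 (SE 0.09) with OSM on the log2 scale, and RRP12, another export factor, rose with both. NOB1 (ENSG00000141101, chromosome 16, 69741871 to 69754926, minus strand), the endonuclease that makes the last cut of the small-subunit RNA, was the only one of the 43 to fall with EGF. Its levels were 106, 109 and 105 CPM in PBS and 76.9, 81.0 and 84.2 CPM in EGF, with no overlap. The log2 fold change was -0.40 (SE 0.07, edgeR adjusted p = 6.94e-06). With OSM it was 100, 110 and 95.5 CPM, which overlapped PBS, and the log2 fold change was -0.06 (SE 0.07, edgeR adjusted p = 0.42).

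All 13 large-subunit assembly genes rose with both ligands, with medians of 1.02 for EGF and 0.62 for OSM. MRTO4, a placeholder for a ribosomal stalk protein, was the highest with both, 1.48 (SE 0.09) and 0.85 (SE 0.09). WDR12, which with PES1 and BOP1 forms the PeBoW complex, was the lowest with both, 0.39 (SE 0.08) and 0.22 (SE 0.08, edgeR adjusted p = 0.0157). The WDR12 call with OSM was lost without PBS replicate 1 (0.19, edgeR adjusted p = 0.0651), PBS replicate 3 (0.19, edgeR adjusted p = 0.0592) or OSM replicate 3 (0.16, edgeR adjusted p = 0.0982), and under upper-quartile scaling (0.16, edgeR adjusted p = 0.0616). PPAN has a neighbouring read-through row in the table, and its counts may be shared with it.

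All 5 nucleolar proteins of several functions rose with EGF and OSM. LYAR (ENSG00000145220, chromosome 4, 4267701 to 4290154, minus strand), a nucleolar cell growth regulator, followed TCOF1. Its levels were 12.3, 12.4 and 11.3 CPM in PBS, 64.8, 67.8 and 80.1 CPM in EGF and 33.6, 35.1 and 45.8 CPM in OSM. Every EGF library was above every OSM library and every OSM library above every PBS library, with log2 fold changes of 2.56 (SE 0.15) and 1.67 (SE 0.15). NPM1, the most abundant member, had the smallest log2 fold changes of the 5, at 0.48 (SE 0.07) and 0.46 (SE 0.07). Its levels were 1334, 1420 and 1278 CPM in PBS, 1753, 1856 and 2034 CPM in EGF and 1736, 1876 and 1921 CPM in OSM. EGF and OSM overlapped each other for NPM1, and both were above PBS.

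The EGF response was larger than the OSM response when the groups were set directly against each other. In OSM against EGF, 34 members were lower and 2 higher, where 28.8% of all genes were lower and 28% higher, with a member median of -0.34. The largest differences were for LYAR at -0.89 (SE 0.14), BRIX1 at -0.78 (SE 0.09) and TCOF1 at -0.69 (SE 0.11). BRIX1 is a large-subunit assembly factor. The 2 members higher with OSM were NOB1 at 0.34 (SE 0.07) and UBTF at 0.23 (SE 0.04), and FBL stood next at 0.13 (SE 0.06, edgeR adjusted p = 0.0825).

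In the comparison of vehicle with the starting point, PBS against T0, 6 members were lower and 1 was higher, against 18.9% lower and 16.2% higher of all genes. In both directions the members' share was under that of all genes. With the replicate number as a block, 13 were lower and 3 higher, and the all-gene shares of that fit are not given here. TCOF1 fell, at -0.61 (SE 0.12), as did FBL at -0.48 (SE 0.06) and NPM1 at -0.34 (SE 0.07) on the log2 scale, and UBTF rose by 0.28 (SE 0.04). The other 3 lower were BOP1, GNL3 and NHP2. RRS1 at 0.24 (SE 0.10, edgeR adjusted p = 0.0677) and POLR1A at 0.13 (SE 0.06, edgeR adjusted p = 0.111) were the next highest. Without T0 replicate 3 the RRS1 value was 0.32, with an edgeR adjusted p of 0.0302, and DESeq2 gave 0.25 with 0.0469.

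Set against T0 in place of PBS, 41 members were higher and 1 lower with EGF, against 32.8% and 36.6% of all genes, with a median of 0.93. The highest were LYAR at 2.23 (SE 0.15), TCOF1 at 2.08 (SE 0.12) and RRS1 at 1.496 (SE 0.10). The lowest were NOB1, which fell by 0.33 (SE 0.07), NPM1 at 0.15 (SE 0.07, edgeR adjusted p = 0.0648) and FBL, which rose by 0.26 (SE 0.06). NPM1 passed the threshold without EGF replicate 1 (0.20, edgeR adjusted p = 0.0244) or T0 replicate 2 (0.18, edgeR adjusted p = 0.0488), and by DESeq2 (0.17, adjusted p = 0.0215). With OSM against T0, 40 were higher and none lower, against 31.1% and 27.8% of all genes, with a median of 0.56. TCOF1 at 1.39 (SE 0.12), LYAR at 1.34 (SE 0.15) and UTP20 at 0.88 (SE 0.08) were the highest. The 3 not called were NOB1 at 0.01 (SE 0.07), NPM1 at 0.12 (SE 0.07) and WDR12 at 0.13 (SE 0.08).

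Both ligands together gave the highest levels. In EGF+OSM against PBS, 42 members were higher and 1 lower, where 37.6% of all genes were higher and 39.6% lower, with a member median of 1.06. TCOF1 reached 3.16 (SE 0.13), LYAR 2.95 (SE 0.15) and NOP56 1.81 (SE 0.09). At the other end were POLR1A at 0.49 (SE 0.06), UBTF at 0.15 (SE 0.04) and NOB1 at -0.18 (SE 0.07, edgeR adjusted p = 0.0149). The fall of NOB1 was not called without EGF+OSM replicate 2 (-0.17, edgeR adjusted p = 0.0508), and UBTF was not called under upper-quartile scaling (0.07, edgeR adjusted p = 0.145).

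Adding OSM to EGF raised 29 members and lowered none, against 17.8% and 17.1% of all genes, with a median of 0.24. TCOF1 rose by 0.47 (SE 0.11), LYAR by 0.39 (SE 0.14, edgeR adjusted p = 0.0274) and NOP56 by 0.35 (SE 0.09). The LYAR call was lost without EGF replicate 1 (0.33, edgeR adjusted p = 0.112), EGF replicate 2 (0.36, edgeR adjusted p = 0.0921) or EGF+OSM replicate 3 (0.32, edgeR adjusted p = 0.128), and without a filter on low counts (0.40, edgeR adjusted p = 0.0581). NHP2 at 0.08 (SE 0.06), GRWD1 at 0.07 (SE 0.05) and RRP12 at -0.01 (SE 0.06) were the lowest and were not called. None of the 29 passed when a fold of at least 1.5 was also asked.

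Adding EGF to OSM raised 41 members and lowered none, against 29.9% and 31.8% of all genes, with a median of 0.54. The highest were LYAR at 1.29 (SE 0.14), TCOF1 at 1.16 (SE 0.12) and BRIX1 at 1.12 (SE 0.09). UBTF at -0.08 (SE 0.04) and NOB1 at -0.12 (SE 0.07) were not called, and NHP2 rose by 0.14 (SE 0.06, edgeR adjusted p = 0.0384). Without OSM replicate 1, EGF+OSM replicate 1 or EGF+OSM replicate 3 the NHP2 value was 0.09, 0.12 and 0.11, with edgeR adjusted p of 0.218, 0.103 and 0.13. UBTF was called lower without OSM replicate 3 (-0.12, edgeR adjusted p = 0.0286) or EGF+OSM replicate 3 (-0.12, edgeR adjusted p = 0.0406). Under upper-quartile scaling NHP2 was not called (0.11, edgeR adjusted p = 0.0744), and UBTF (-0.11, edgeR adjusted p = 0.0283) and NOB1 (-0.15, edgeR adjusted p = 0.0476) were called lower.

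**Figure D3:**
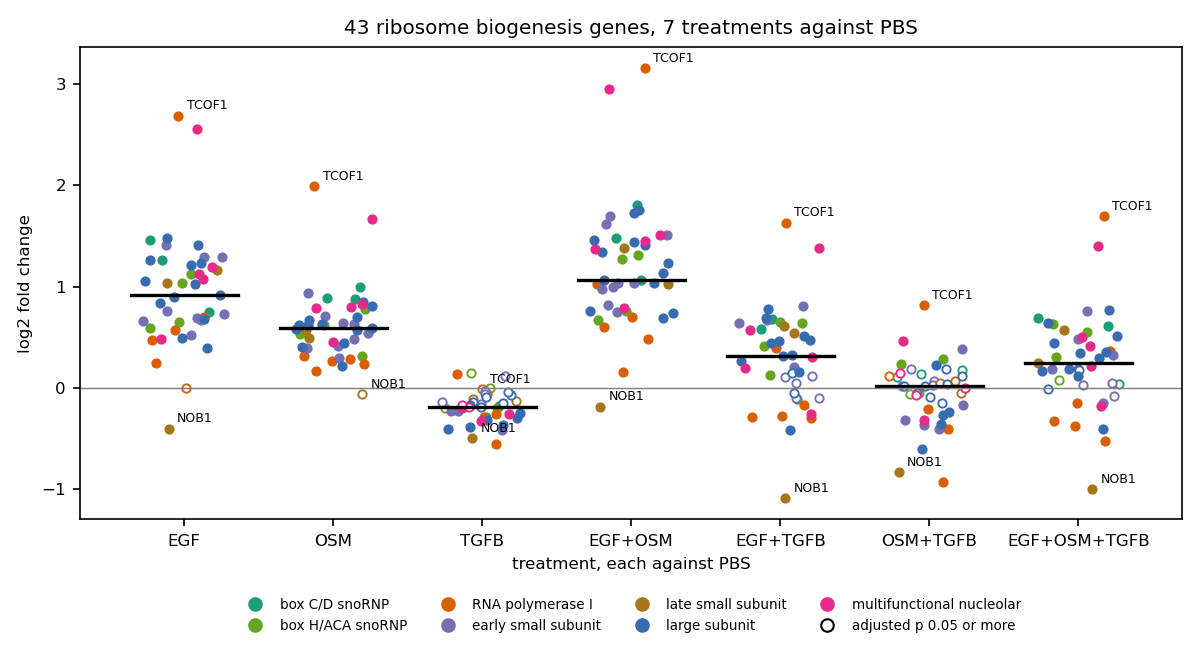
Points are the log2 fold changes of the 43 members for each of 7 treatments against PBS, coloured by role, with open circles for an adjusted p of 0.05 or more and a bar at the median. The median is 0.92 for EGF, 0.60 for OSM and -0.18 for TGFB. TCOF1 is the highest point in every column except TGFB.

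TGFB alone had a smaller effect in the opposite direction. It lowered 20 members and raised 1, where 15.8% of all genes were lower and 19.9% higher, with a member median of -0.18 and -0.01 for all genes. By role, 3 of 6 polymerase I genes fell, 7 of 13 of the large-subunit genes, 3 of 9 of the early small-subunit genes, 3 of 5 multifunctional proteins, 2 of 3 box C/D, 1 of 4 box H/ACA and 1 of 3 late small-subunit genes. None of the 20 passed when a fold of at least 1.5 was also asked.

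The deepest fall with TGFB was that of POLR1B (ENSG00000125630, chromosome 2, 112541915 to 112579818, plus strand), the second largest polymerase I subunit. Its levels were 65.9, 67.8 and 63.0 CPM in PBS and 43.9, 43.9 and 46.1 CPM in TGFB. The groups did not overlap, and the log2 fold change was -0.55 (SE 0.09, edgeR adjusted p = 3.12e-05). NOB1 followed at -0.49 (SE 0.07, edgeR adjusted p = 1.57e-06), with 74.2, 76.7 and 75.9 CPM in TGFB, all under PBS. NAT10 at -0.42 (SE 0.07), NOP16 at -0.41 (SE 0.10) and NOLC1 at -0.33 (SE 0.08) were the lowest of the early small-subunit, large-subunit and multifunctional genes. NOP16 is a large-subunit factor and NOLC1 a chaperone of small nucleolar particles.

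UBTF was the 1 member higher with TGFB, at 140, 137 and 139 CPM, above all PBS libraries, with a log2 fold change of 0.14 (SE 0.04, edgeR adjusted p = 0.0133). Without PBS replicate 3 it was 0.13, with an edgeR adjusted p of 0.0515, and without a filter on low counts 0.12, with 0.0974. NOP10 (ENSG00000182117, chromosome 15, 34339159 to 34343180, minus strand) had the highest value of the set but was not called, at 0.15 (SE 0.06, edgeR adjusted p = 0.0662), and was called without PBS replicate 2 (0.21, edgeR adjusted p = 0.0192) or with only the compared groups in the fit (edgeR adjusted p = 0.0475). Its levels were 53.6, 58.5 and 50.5 CPM in PBS and 58.8, 59.2 and 62.4 CPM in TGFB, with each TGFB library above each PBS library.

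Of the other extremes by role, the box C/D calls lay close to the threshold. In the box C/D group the lowest value was that of NOP58 at -0.28 (SE 0.10, edgeR adjusted p = 0.0279) and the highest that of FBL at -0.18 (SE 0.06, edgeR adjusted p = 0.0302). The NOP58 call was lost without TGFB replicate 1, TGFB replicate 2, PBS replicate 2 or PBS replicate 3, with edgeR adjusted p of 0.0849, 0.0801, 0.0633 and 0.0722. The FBL call was lost without PBS replicate 1, PBS replicate 2, TGFB replicate 1 or TGFB replicate 2, with edgeR adjusted p of 0.0539, 0.144, 0.0578 and 0.112. DKC1 at -0.20 (SE 0.08) and DDX21, an RNA helicase, at -0.17 (SE 0.07) were not called, but both were called lower by DESeq2 (adjusted p = 0.0379 and 0.0418), and by edgeR under upper-quartile scaling, without a filter on low counts and with only the compared groups in the fit. RRP12 at -0.11 (SE 0.06, edgeR adjusted p = 0.168) was called only under upper-quartile scaling (-0.14, edgeR adjusted p = 0.0483) among the alternatives of scaling, filter and tool. GRWD1, a histone and ribosomal protein chaperone, at -0.04 (SE 0.05, edgeR adjusted p = 0.614) and UTP20 at 0.12 (SE 0.08, edgeR adjusted p = 0.276) were not called.

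On top of a growth signal TGFB lowered nearly every member. In EGF+TGFB against EGF, 42 of 43 fell and none rose, where 27.7% of all genes were lower and 27% higher, with a member median of -0.63. In OSM+TGFB against OSM, 41 fell and none rose, against 25.6% and 26.1% of all genes, with a median of -0.69. With all 3 ligands against EGF+OSM, 42 fell and none rose, against 29.5% and 31.6%, with a median of -0.93. The medians of all genes in the 3 comparisons were -0.01, 0.00 and 0.02, and 41 members fell in all 3. How many of all genes fell in all 3 was not counted. These comparisons share no library with each other.

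POLR1B, LYAR and TCOF1 had the lowest values in each of the 3. POLR1B was at 99.5, 107 and 114 CPM in EGF and 50.8, 48.2 and 64.0 CPM in EGF+TGFB, a log2 fold change of -0.98 (SE 0.09). It was at 77.3, 77.5 and 89.2 CPM in OSM and 32.7, 33.1 and 37.2 CPM in OSM+TGFB, a log2 fold change of -1.24 (SE 0.09). It was at 127, 131 and 142 CPM in EGF+OSM and 45.8, 40.4 and 50.1 CPM with all 3 ligands, a log2 fold change of -1.55 (SE 0.09). In none of the 3 pairs did a library with TGFB reach a library without it.

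LYAR had log2 fold changes of -1.18 (SE 0.14) on EGF, -1.21 (SE 0.15) on OSM and -1.56 (SE 0.14) on EGF+OSM, down to 29.2, 27.5 and 37.5 CPM, 15.8, 13.1 and 20.7 CPM, and 32.4, 28.6 and 33.9 CPM. Those of TCOF1 were -1.06 (SE 0.12), -1.17 (SE 0.12) and -1.46 (SE 0.12), down to 146, 137 and 196 CPM, 86.9, 84.5 and 102 CPM, and 162, 149 and 190 CPM. The lowered TCOF1 levels remained above all 3 PBS libraries in each case. Among the falls on EGF, the late small-subunit gene NOB1 also took part, at 43.8, 49.5 and 57.4 CPM, with a log2 fold change of -0.69 (SE 0.07).

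NOP10 was the 1 member that edgeR's quasi-likelihood test over all groups called in none of the 3. Its levels were 83.1, 86.1 and 86.4 CPM in EGF and 81.5, 86.4 and 85.4 CPM in EGF+TGFB, and 63.8, 68.7 and 70.3 CPM in OSM and 63.6, 64.4 and 70.7 CPM in OSM+TGFB. The libraries overlapped in both pairs, and the log2 fold changes were -0.01 (SE 0.06, edgeR adjusted p = 0.874) and -0.03 (SE 0.06, edgeR adjusted p = 0.726). On EGF+OSM the value was -0.13 (SE 0.06, edgeR adjusted p = 0.0647), with 91.7, 89.3 and 95.1 CPM before and 83.5, 84.0 and 84.4 CPM after, which did not overlap. That fall was called by DESeq2 (adjusted p = 0.0261), under upper-quartile scaling (edgeR adjusted p = 0.0324), with only the compared groups in the fit (edgeR adjusted p = 0.0135) and with the replicate number as a block (edgeR adjusted p = 0.0313).

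RRN3 and UBTF were next. RRN3 fell, at -0.17 (SE 0.06, edgeR adjusted p = 0.0245), on EGF and, at -0.34 (SE 0.06), on EGF+OSM, and on OSM it was at -0.04 (SE 0.07, edgeR adjusted p = 0.623). The call on EGF was lost without EGF replicate 2 (-0.17, edgeR adjusted p = 0.0547), EGF replicate 3 (-0.13, edgeR adjusted p = 0.143), EGF+TGFB replicate 2 (-0.17, edgeR adjusted p = 0.0565) or EGF+TGFB replicate 3 (-0.13, edgeR adjusted p = 0.149), and without a filter on low counts (-0.15, edgeR adjusted p = 0.0813). UBTF fell on all 3, with log2 fold changes of -0.29, -0.16 and -0.53 (SE 0.04 in each) on EGF, OSM and EGF+OSM, although it was higher with TGFB alone.

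**Figure D4:**
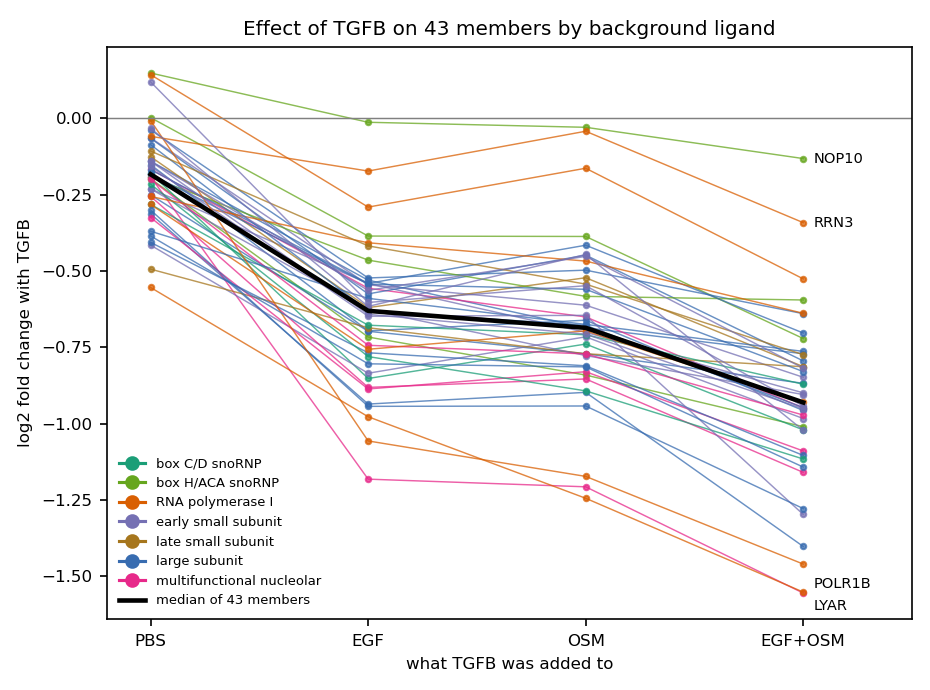
Each line is 1 of the 43 members, coloured by role, and the points give its log2 fold change when TGFB was added to PBS, EGF, OSM or EGF+OSM. The black line is the median of the 43, which runs from -0.18 on PBS to -0.63, -0.69 and -0.93, and NOP10 is the line nearest 0 on the 3 ligand backgrounds.

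Set against PBS, the combinations with TGFB left the members divided. In EGF+TGFB 28 were higher and 7 lower, where 36.2% of all genes were higher and 37.5% lower, with a member median of 0.32. Without EGF+TGFB replicate 3 they were 25 and 0.25. TCOF1 at 1.63 (SE 0.12), LYAR at 1.38 (SE 0.15) and UTP20 at 0.81 (SE 0.08) were the highest. The 7 lower were NOB1 at -1.09 (SE 0.07), WDR12 at -0.41 (SE 0.08), UBTF at -0.29 (SE 0.04), NPM1 at -0.26 (SE 0.07), POLR1B at -0.27 (SE 0.09) and the polymerase I subunits POLR1A and POLR1C. Upper-quartile scaling gave 11 lower. Of the 41 members that EGF raised, 28 were still above PBS, 8 were not called and 5 were below it. The matching shares of all genes that EGF raised were not counted, and both comparisons use the same PBS libraries.

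In OSM+TGFB 6 were higher and 13 lower, against 34.2% higher and 31.8% lower of all genes, a share of lower members close to the background. The median was 0.01, and it changed sign under upper-quartile scaling (-0.07). It was also below 0 without OSM+TGFB replicate 3 (-0.03). The 6 higher were TCOF1 at 0.82 (SE 0.12), LYAR at 0.46 (SE 0.16, edgeR adjusted p = 0.0132), UTP20 at 0.39 (SE 0.08), NOP10 at 0.29 (SE 0.06), GAR1 and LAS1L. GAR1 is a box H/ACA protein, and LAS1L is an endonuclease of large-subunit processing. The LYAR call was lost without OSM+TGFB replicate 3 (0.27, edgeR adjusted p = 0.14). The lowest were POLR1B at -0.93 (SE 0.09), NOB1 at -0.83 (SE 0.07) and WDR12 at -0.60 (SE 0.08). Of the 42 members that OSM raised, 6 were still above PBS, 24 were not called and 12 were below it. Here too the matching shares of all genes that OSM raised were not counted, and the PBS libraries are shared.

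With all 3 ligands 28 were higher and 8 lower, against 37.7% and 36.7% of all genes, with a median of 0.25. TCOF1 at 1.70 (SE 0.12), LYAR at 1.40 (SE 0.15) and MRTO4 at 0.77 (SE 0.09) were the highest, and NOB1 at -0.998 (SE 0.07), POLR1B at -0.53 (SE 0.09) and WDR12 at -0.41 (SE 0.08) the lowest. The other 5 lower were NOP14, NPM1, POLR1A, POLR1C and UBTF. Without EGF+OSM+TGFB replicate 2 the number lower was 5.

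Of the 6 polymerase I genes, 2 were higher and 4 lower in EGF+TGFB, 1 higher and 3 lower in OSM+TGFB, and 2 higher and 4 lower with all 3 ligands. TCOF1 was higher in each, and RRN3 in the combinations that held EGF. Of the 16 polymerase I genes of a further list described below, 8 were higher and 4 lower in EGF+TGFB, 7 higher and 4 lower in OSM+TGFB, and 9 higher and 4 lower with all 3 ligands. The all-gene shares higher and lower were 36.2% and 37.5% in EGF+TGFB, 34.2% and 31.8% in OSM+TGFB and 37.7% and 36.7% with all 3 ligands. Differences between roles were not tested.

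Most members departed from additivity on the log2 scale in each of the 3 pairs. The departure of a pair compares its log2 fold change with the 2 single ones added together, each taken against PBS. It equals 0 where the 2 fold changes multiply. A value below 0 therefore does not say whether CPM levels add, which was not tested. For EGF+OSM, 28 members departed below 0 and 1 above, where 23% of all genes were below and 15.7% above, with a member median of -0.38 and -0.01 for all genes. The largest were TCOF1 at -1.53 (SE 0.16, edgeR adjusted p = 1.2e-07), LYAR at -1.27 (SE 0.20, edgeR adjusted p = 2.64e-05) and NOP58 at -0.67 (SE 0.14). The member above 0 was NOB1 at 0.28 (SE 0.09, edgeR adjusted p = 0.0201), a call lost without EGF replicate 1 (0.25, edgeR adjusted p = 0.0575) or OSM replicate 3 (0.23, edgeR adjusted p = 0.0631). WDR12 at 0.13 (SE 0.11) and POLR1B at 0.01 (SE 0.13) were not called. Without OSM replicate 3 the median was -0.28 and 22 members were below 0. TCOF1 and LYAR also had the largest single responses to EGF and to OSM. By role, the number below 0 was 1 of 6 polymerase I genes (TCOF1), 3 of 3 box C/D, 3 of 4 box H/ACA, 5 of 9 early small-subunit, 2 of 3 late small-subunit, 10 of 13 large-subunit and 4 of 5 multifunctional genes, and differences between roles were not tested.

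For EGF+TGFB, 37 members departed below 0 and none above, against 16.5% and 13.3% of all genes, with a median of -0.45. TCOF1 at -1.05 (SE 0.17), LYAR at -0.99 (SE 0.21) and UTP20 at -0.72 (SE 0.11) were the largest. The highest values were those of RRN3 at -0.11 (SE 0.09), POLR1A at -0.15 (SE 0.09) and NOP10 at -0.16 (SE 0.09), none of them called, although NOP10 was with only the compared groups in the fit (-0.22, edgeR adjusted p = 0.0337). For OSM+TGFB, 38 departed below 0 and none above, against 13.7% and 9.61% of all genes, with a median of -0.47. TCOF1 at -1.17 (SE 0.17), LYAR at -1.02 (SE 0.22) and POLR1B at -0.69 (SE 0.13) were the largest. RRN3 at 0.02 (SE 0.09), NOP10 at -0.18 (SE 0.09) and POLR1A at -0.21 (SE 0.09) were not called, although POLR1A was with only the compared groups in the fit (-0.22, edgeR adjusted p = 0.0403). Without OSM replicate 3 it was -0.41, with 31 below 0. The 3 departures share the PBS libraries, and each pair of them shares 1 single-ligand group.

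For TCOF1 the levels show the form of the departures of the pairs with TGFB. TGFB alone gave 53.1, 49.3 and 51.3 CPM, which overlapped PBS, with a log2 fold change of -0.01 (SE 0.12, edgeR adjusted p = 0.973). In the presence of EGF it took the mean from 332 to 160 CPM, and in the presence of OSM from 205 to 91.1 CPM.

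NOB1, UBTF and NOP10 were least like the other members over the 9 groups. Pearson's r between a member's 9 group means (log2 CPM) and the median of the other members was 0.19 for NOB1, 0.24 for UBTF and 0.76 for NOP10. The median over the 43 was 0.97, and 34 were over 0.9. This is a description with no test, over group means that come from the same libraries for every member. The order of group means for NOB1 ran from 50.2 ± 6.81 CPM in EGF+TGFB, 53.4 ± 2.16 with all 3 ligands and 59.7 ± 4.22 in OSM+TGFB, through 75.6 ± 1.26 in TGFB, 80.7 ± 3.67 in EGF and 93.8 ± 1.59 in EGF+OSM, to 102 ± 1.94 in T0, 102 ± 7.46 in OSM and 107 ± 1.95 in PBS (SD, n = 3). The EGF+TGFB libraries overlapped those of the next 2 groups in this order, and the OSM libraries overlapped those of T0 and PBS.

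UBTF ran from 97.1 ± 2.15 CPM with all 3 ligands, 103 ± 4.23 in EGF+TGFB and 104 ± 3.18 in T0 to 140 ± 6.38 in EGF+OSM and 148 ± 7.15 in OSM (SD, n = 3). NOP10 ran from 54.2 ± 4.04 CPM in PBS, 57.6 ± 5.91 in T0 and 60.1 ± 1.98 in TGFB to 85.2 ± 1.83 in EGF and 92.0 ± 2.90 in EGF+OSM (SD, n = 3). Its T0 libraries overlapped those of PBS and of TGFB, while the TGFB libraries lay above those of PBS. Groups with EGF were the 4 highest for NOP10, whether or not TGFB was present.

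A further 151 ribosome biogenesis genes, listed by role and not among the 43, were read the same way, and all 151 were tested. With EGF 133 were higher and 8 lower, against 34.9% and 38.6% of all genes, with a median of 0.66. With OSM 123 were higher and 4 lower, against 33.5% and 29.8%, with a median of 0.35. TGFB alone lowered 38 and raised 3, against 15.8% and 19.9% of all genes. When TGFB was added to EGF 127 fell and 5 rose, against 27.7% and 27%. On OSM 123 fell and 5 rose, against 25.6% and 26.1%. On EGF+OSM 138 fell and 3 rose, against 29.5% and 31.6%. The medians were -0.38, -0.36 and -0.60, nearer 0 than those of the 43. That difference was not tested.

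With EGF the highest and lowest of each list were as follows. Of the other polymerase I genes POLR1G was at 1.89 (SE 0.09) and POLR1D, a subunit shared with polymerase III, at -0.62 (SE 0.06). Of the other small nucleolar particle genes RUVBL1 was at 1.27 (SE 0.07) and ZNHIT3 at -0.39 (SE 0.07). In early small-subunit processing RRP7A was at 1.27 (SE 0.06) and DDX49 at -0.14 (SE 0.06). Among the late small-subunit genes PNO1, which binds the same particle as NOB1, was at 1.25 (SE 0.07) and the kinase RIOK3 at -1.25 (SE 0.07). In the large-subunit list SPATA5 was at 1.68 (SE 0.15) and NOP53 at -1.25 (SE 0.09). Of the RNA exosome, which trims the precursor, EXOSC8 was at 1.85 (SE 0.09) and EXOSC5 at -0.45 (SE 0.08). All 12 were called by edgeR, and both directions appeared in each list.

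**Figure D5:**
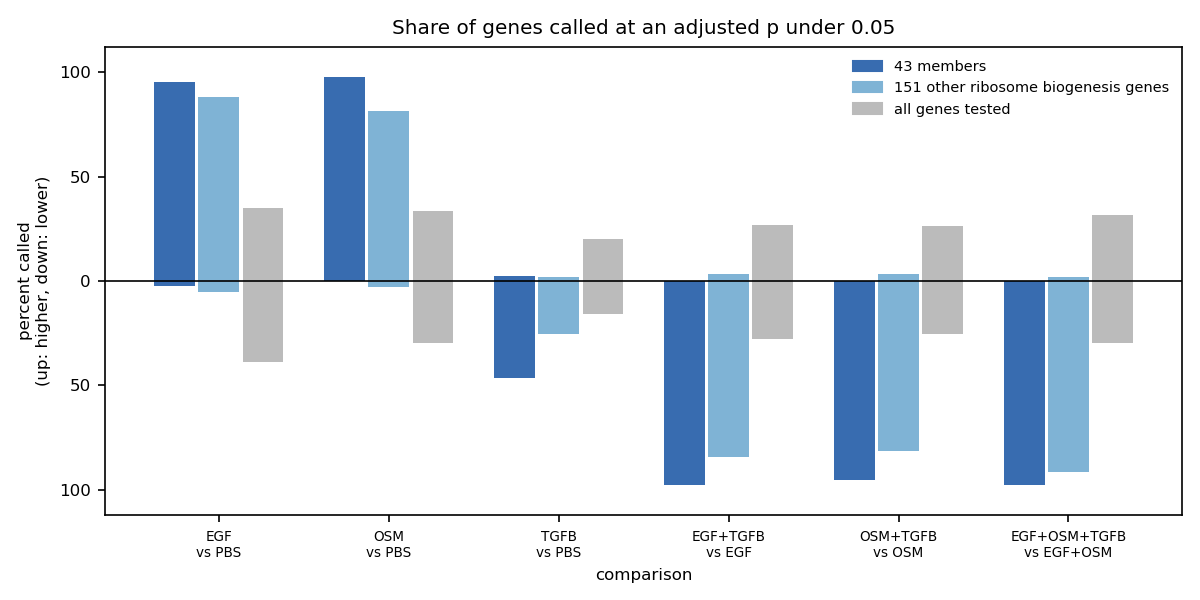
Bars give the percent of genes called higher (up) or lower (down) at an adjusted p under 0.05 for the 43 members, the 151 other ribosome biogenesis genes and all genes tested, in 6 comparisons. With EGF the members' upward bar stands for 41 of 43, and the all-gene bar for 34.9%.

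MYC transcript was measured beside the members. Its mean level was 251 ± 4.52 CPM in PBS, 345 ± 12.7 in EGF, 382 ± 19.0 in OSM and 391 ± 6.19 in EGF+OSM, and 194 ± 3.62 in TGFB, 175 ± 22.3 in EGF+TGFB, 178 ± 12.3 in OSM+TGFB and 165 ± 6.79 with all 3 ligands (SD, n = 3). T0 stood at 270 ± 47.3 CPM. Against PBS the log2 fold changes of MYC were 0.46 (SE 0.09) for EGF, 0.60 (SE 0.09) for OSM and -0.38 (SE 0.09) for TGFB, each called. Added TGFB lowered it in all 3 backgrounds, with -0.98 (SE 0.09) on EGF and -1.24 (SE 0.09) on EGF+OSM. OSM against EGF gave 0.15 for MYC (SE 0.09, edgeR adjusted p = 0.159), and its part in the members' levels was not tested.

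The 16 members with CACGTG in a promoter window responded to EGF with a median of 0.94 on the log2 scale, and the 21 without it with 0.70. With OSM the medians were 0.61 and 0.54. On adding TGFB to EGF they were -0.62 and -0.63, to OSM -0.66 and -0.68, and to EGF+OSM -0.92 and -0.93. These medians carry no test. NOLC1, BOP1, TCOF1, RRP12, RRS1 and NOP58, which were not matched to a promoter, are in neither set. All of these rose with EGF by more than both medians, TCOF1 by 2.69. Of the 3 members whose promoters are printed, NAT10 was at -0.84 (SE 0.07) on adding TGFB to EGF, UTP20 at -0.60 (SE 0.08) and NOP10 at -0.01 (SE 0.06). With TGFB alone NAT10 was at -0.42 and called, and UTP20 at 0.12 and NOP10 at 0.15 were not called.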

How the data were processed

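Polyadenylated RNA of 27 MCF10A libraries, prepared with a stranded kit per the labels' protocols, was read from 1 table of genes by libraries. The submitters' processing notes name Trim Galore 0.4.3, cutadapt 1.10, FastQC 0.11.5, kallisto 0.46.2, R 3.5.0 and the builds GRCh38.p5 and hg38. The deposited values were treated as estimated counts. They were already whole numbers, so rounding changed nothing, and how the authors rounded or summed transcripts to genes is not given in the sources used here. Such estimates divide reads between near-identical genes, which can blur paralogs and pseudogenes. Rows without a symbol (0.324% of the counts) stayed as single rows.

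Rows sharing a symbol were summed. edgeR 4.0.16 in R 4.3.3 fitted a quasi-likelihood model (glmQLFit, robust) with a mean per group over all 27 libraries, after filterByExpr, with TMM factors of 0.867 to 1.12, 18 residual degrees of freedom and a biological coefficient of variation of 7.83%. Contrasts were tested with glmQLFTest and adjusted by Benjamini-Hochberg over 15575 genes, and called at an adjusted p under 0.05. Fold changes used a prior count of 0.125. The fit was tested on simulated data. CPM used TMM-scaled totals and are given per library or as mean ± SD. At these depths the spread between libraries, more than counting error, sets the precision. Intervals for counting error were not used.

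Genes were named by a rule: the highest and lowest member of each role with EGF, OSM and TGFB, the 3 highest and 3 lowest members elsewhere, members called against the majority, the 3 largest departures each way, the 3 members least like the rest, the extremes of each further list with EGF, and MYC. The promoters were searched for CACGTG after the other results were known. The members and lists were chosen with earlier results of these data known. Alternatives were upper-quartile scaling, DESeq2 1.42.0, no filter on low counts, rows as deposited, only the compared groups, a fold of at least 1.5, the replicate number as a block, and each library left out in turn. Leaving out replicate 3 in all 9 groups was added after the library values were seen. Coordinates are those of GENCODE v44 on GRCh38.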

Additional observations from a re-analysis of the deposited data

Results flagged for a closer look

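On the log2 scale, the responses to 2 ligands departed from the sum of the single responses by a direct test of the difference. The test was edgeR's quasi-likelihood test of the interaction, adjusted over all genes, and those results are listed here as values. For EGF with OSM, 29 members were called, among them TCOF1 at -1.53, LYAR at -1.27 and NOP58 at -0.67, and NOB1 in the opposite direction at 0.28, on the log2 scale. For EGF with TGFB, 37 members were called, led by TCOF1 at -1.05, LYAR at -0.99 and UTP20 at -0.72. For OSM with TGFB, 38 members were called, led by TCOF1 at -1.17, LYAR at -1.02 and POLR1B at -0.69. In every one of these except NOB1 the log2 fold change of the pair was lower than the sum of the 2 single ones. Over all genes, 23%, 16.5% and 13.7% were called below 0 in these pairs, and 15.7%, 13.3% and 9.61% above. Whether CPM levels add was not tested.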

How the results depend on the processing

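No named member changed direction under any alternative, in a comparison where it was named and called. The other members were not checked for this. Of the counts and medians that answer a comparison, 536 recomputed values stayed near the first and 27 moved. Asking also for a fold of at least 1.5 left 23 members higher in OSM against PBS, 0 lower in TGFB against PBS, 12 higher in EGF+TGFB, 1 higher and 3 lower in OSM+TGFB and 8 higher with all 3 ligands. It left 1 lower in PBS against T0, 19 higher in OSM against T0, 8 lower in OSM against EGF, 0 higher in EGF+OSM against EGF, 20 higher in EGF+OSM against OSM and 27 lower in EGF+TGFB against EGF. The departures gave 8 (EGF+OSM), 7 (EGF+TGFB) and 9 (OSM+TGFB) members below 0. A stricter threshold by construction calls fewer genes. The shares of all genes that passed this limit are not given here, so the members' loss of calls cannot be set against genes in general. Under upper-quartile scaling the medians against PBS were 0.98 in EGF+OSM, 0.22 in EGF+TGFB, -0.074 in OSM+TGFB and 0.15 with all 3 ligands, and the cause was not tested. Without replicate 3 in all 9 groups (chosen after seeing the data) the medians were 0.47 in OSM, 0.23 in EGF+TGFB and -0.089 in OSM+TGFB against PBS, and -0.25 for the departure of EGF+OSM. Leaving out 1 library at a time moved the OSM median between 0.51 and 0.64 and the median departure of EGF+OSM between -0.43 and -0.28, with OSM replicate 3 at the end nearer 0 in both. The number lowered by TGFB alone ran from 14 to 20.

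The replicate numbers were not treated as pairs in the main fit, because the labels give no shared batch. Deviations of same-numbered libraries from their group means correlated at -0.03 to 0.18 over 108 pairs, with a median of 0.06, and 23 pairs were over 0.1. For libraries of different numbers the median was -0.03 over 216 pairs, and 1 was over 0.1. As a hint from the data, and not from the design, 25 of 27 libraries correlated best with a library of their own number. With the replicate number as a block, 10 members were higher in OSM+TGFB against PBS and 13 lower and 3 higher in PBS against T0, where the fit without it gave 6, 6 and 1. The all-gene shares with the block are not given here. Among single members and smaller counts, 2151 recomputed values stayed, 29 counts moved, 90 lost a call and 40 gained one. Depth limits members with few reads, such as GAR1 near 10 CPM. Wherever edgeR's quasi-likelihood test called 0 members in a direction, 0 members passed an unadjusted p under 0.05 in that direction and DESeq2 also called 0.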
